A study of Mus musculus with 8 samples.

Results

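The keratin genes of the mouse were followed through arrays of small intestine taken at embryonic stage E18.5. Members were the array probes whose gene name in the scanner files is Krt followed directly by a number and an optional letter, which leaves out the keratin-associated protein genes. This gave 65 of the 55681 gene probes, standing for 51 of the 36083 gene names on the array, and of which 13 had more than 1 probe. Krt7, Krt8, Krt18, Krt19 and Krt20 were treated as simple epithelial keratins (5 genes, 6 probes) and 17 as squamous keratins (24 probes), which were divided into basal, mucosal, corneal, epidermal and stress-induced genes. A further 23 genes (28 probes) were hair keratins of the hair shaft or its inner sheath, and 6 genes (7 probes) belonged to none of these classes. The labels give 4 Control samples, wild type for Rfx6 (Rfx6+/+), and 4 Rfx6 KO samples, homozygous for the deleted allele (Rfx6-/-). Rfx6 encodes a transcription factor of the RFX family, and the stated aim of the comparison is to find the genes it regulates in this tissue. The deleted allele came from a floxed one recombined with CMV-Cre, a general deleter, and heterozygotes were then intercrossed, so it was carried in every tissue and not in the gut epithelium alone. The labels do not say which samples came from the same litter, and p-values measure only the spread between these samples.

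Keratins are the intermediate filament proteins of epithelial cells, and each filament pairs an acidic type I keratin with a basic type II keratin. Epithelia of a single cell layer, such as the intestinal lining, make Krt8 and Krt18, with Krt19 and, in differentiated intestinal cells, Krt20. Stratified squamous epithelia make Krt5, Krt14 and Krt15 in the basal layer and switch above it, to Krt4 and Krt13 in mucosa such as the mouse esophagus and forestomach, or to Krt1 and Krt10 in skin. Keratin classes are therefore widely used to tell epithelia apart.

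The 8 arrays were on 1 slide and were scanned together, and slide row 1 held Control 1 and Rfx6 KO 2, 3 and 4, with the others in row 2. Before scaling, the 75th percentile of the signal was between 636 and 741 units, 57.5% to 67.2% of probes stood well above background, and no gene spot was saturated. Levels below are log2 signals after background subtraction, relative to the 75th percentile of their array, so a level of 0 is the signal of that percentile. The level of 1 probe cannot be set against that of another. The only Rfx6 probe did not differ between the groups beyond their spread (log2 difference 0.38, SE 0.29, limma adjusted p = 0.503), so it does not check the labels, and the groups are called by their labels throughout. The markers of intestinal epithelium were well above background on every array: Epcam differed by -0.01, Vil1 by -0.11 and Cdx2 by -0.24. Of the 7 such markers none was higher past the threshold, and Fabp2, an intestinal fatty acid carrier, was lower (-0.42, adjusted p = 0.0483).

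Of the 51 keratin genes, 45 were well above background on at least 1 array and 6 on none. The latter were all hair keratins (Krt26, Krt33a, Krt71, Krt75, Krt82 and Krt84). A gene was tested where 1 or both groups had a probe well above background on each of their 4 arrays, and the probe with the highest mean level stood for the gene. This admitted 40 probes and 33 keratin genes, 27 of them with all 8 arrays above background and 6 through 1 group alone. On the Rfx6 KO arrays 7 keratin genes were higher past an adjusted p of 0.05 (limma, Benjamini-Hochberg over 23282 genes), namely Krt34, Krt23, Krt79, Krt78, Krt15, Krt6b and Krt13. The background for that call was 2.33% of all genes, and with the slide row as a block 5 keratin genes were higher. None was lower, where 2.59% of all genes were, and 4.92% of genes passed in either direction. At an unadjusted p under 0.05, limma gave 21 keratin genes higher, where 7.66% of all genes were, and 1 lower, where 12.8% were. Among the 27 genes measured on all 8 arrays, 5 passed as higher, against 2.0% of all such genes. All 4 Rfx6 KO values lay above all 4 Control values for 19 keratin genes, where 5.41% of all genes did so. They lay below them for 1, Krt31, where 9.23% did. The 19 include Krt4, Krt32, Krt34 and Krt78, which entered the fit through the KO arrays alone. The 21 at an unadjusted p under 0.05 hold these and Krt35, which entered the same way.

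**Figure D1:**
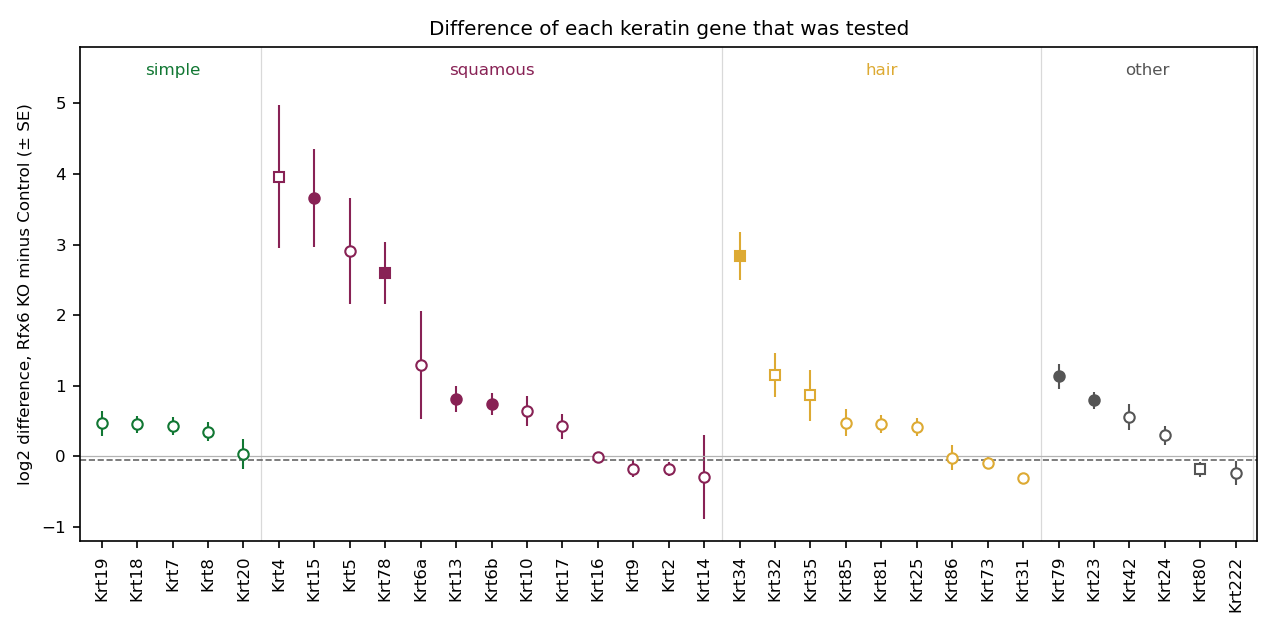
Log2 difference, Rfx6 KO minus Control, of each of the 33 keratin genes tested, with its standard error, grouped by class. Filled symbols passed the threshold, squares mark genes that passed the filter through 1 group only, and the dashed line is the median of all genes tested, -0.05; most points lie above that line, and the largest differences are among the squamous keratins and Krt34.

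The differences leaned upward across the family, with 24 positive and 9 negative. Their median was 0.46, against -0.05 over all genes tested, 39.5% of which had a positive difference. By class, the median was 0.43 for the simple keratins, 0.74 for the squamous ones and 0.46 for the hair keratins. For genes above background on all 8 arrays, 19 of 27 differences were positive and the median was 0.43. Among these the median was 0.64 for the squamous class and 0.20 for the hair class. A bulk sample cannot tell a change in the number of cells of a type from a change in RNA per cell.

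The simple keratins, which form the filaments of the intestinal lining, were well above background on all 8 arrays. All 5 had positive differences, between 0.03 and 0.47, and none passed the threshold. Krt18, the type I partner of Krt8, had levels of 6.83, 6.37, 6.82 and 6.72 on Control 1 to 4 and of 7.20, 7.06, 7.03 and 7.25 on Rfx6 KO 1 to 4. The 4 KO values lay above the Control values, with a difference of 0.45 (SE 0.12, limma adjusted p = 0.0655). Krt18 passed under normexp background correction, with the deposited series matrix values, with array weights and with a trended robust prior (adjusted p from 0.0342 to 0.171 over its alternatives).

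Krt8, the type II partner, was read by 2 probes that gave alike differences. The first, at base 1722 of the transcript (chromosome 15, 101827138 to 101827197, mm9), stood at 6.99, 6.49, 6.99 and 6.97 on the Control arrays and at 7.38, 7.00, 7.27 and 7.18 on the KO arrays. The second, at base 1037, stood at 5.59, 4.91, 5.58 and 5.56 and at 6.12, 5.60, 5.87 and 5.83. On both, Control 2 was the lowest array of all, and KO 2 was the lowest KO array. The differences were 0.35 ± 0.14 and 0.45 ± 0.17 (standard errors), with an adjusted p of 0.198 for the gene.

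Krt19, a type I keratin without most of the usual tail domain, was also lowest on Control 2 and, among KO arrays, on KO 2. Its levels were 5.61, 4.95, 5.62 and 5.67 on Control arrays and 6.21, 5.73, 5.89 and 5.88 on KO arrays, a difference of 0.47 with a standard error of 0.18 (adjusted p = 0.178). Krt7, a type II keratin of ducts and other simple epithelia, stood at 2.72, 2.31, 2.84 and 2.61 and at 3.09, 3.11, 2.87 and 3.14. The groups again did not overlap, though Control 3 lay just below KO 3, and the difference was 0.43 with a standard error of 0.12 (adjusted p = 0.0885). Krt7 passed with quantile normalization (adjusted p = 0.0496) and with the series matrix values (adjusted p = 0.0387). Control 2 was the lowest Control array for 4 of the 5 simple keratins, as it was for 36.5% of all genes.

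Krt20, the keratin of differentiated enterocytes and goblet cells, had the smallest difference of the simple keratins. It stood at 5.20, 4.84, 4.83 and 4.95 on Control arrays and at 5.47, 4.46, 4.78 and 5.26 on KO arrays. The groups overlapped throughout, and the KO arrays held both the highest and the lowest value. The difference was 0.03 with a standard error of 0.21 (adjusted p = 0.947), and its sign changed when single arrays were left out.

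**Figure D2:**
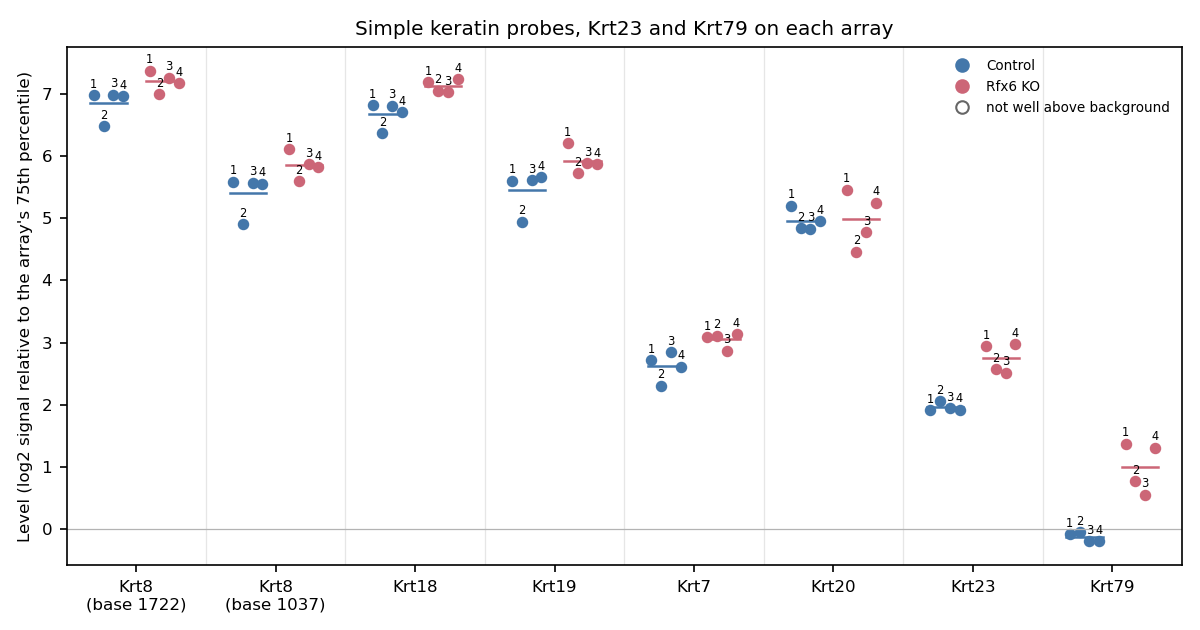
Level of each simple keratin probe, and of Krt23 and Krt79, on each array; the vertical axis is log2 signal relative to the array's 75th percentile, numbers are replicates and bars are group means. The KO points lie slightly above the Control points for Krt8, Krt18, Krt19 and Krt7, overlap for Krt20, and lie clear of them for Krt23 and Krt79.

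The squamous keratins gave the largest differences of the family and the least even ones. Of the 13 tested, 4 passed as higher (Krt78, Krt15, Krt6b and Krt13), where 2.33% of all genes did, and none as lower, where 2.59% did. Differences were positive for 9, against 39.5% of all genes. For 7 of the 13 all KO values lay above all Control values, where 5.41% of all genes did so. Krt4 and Krt78, both among the 7, entered the fit through the KO arrays alone. Among the 11 measured on all 8 arrays, 3 passed as higher, against 2.0% of all such genes. All 17 were well above background on at least 1 array, but Krt1, Krt12, Krt76 and Krt77 each on 1 array of a single probe, and these were not tested.

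Among the basal keratins, Krt15 passed the threshold. Krt15, a type I keratin of basal cells, is read at chromosome 11, 99993331 to 99993390. Its levels were -2.51, -2.14, -2.65 and -1.88 on Control 1 to 4 and 2.35, 3.12, 0.35 and -0.38 on Rfx6 KO 1 to 4. Every KO array lay above every Control array, and KO 1 and KO 2 stood well above KO 3 and KO 4. The group levels were -2.30 ± 0.35 and 1.36 ± 1.64 (SD, n = 4), a difference of 3.66 with a standard error of 0.69, or 12.6-fold (adjusted p = 0.0205). The call was lost without Control 1 (adjusted p = 0.0697), Control 3 (0.0553) or KO 1 (0.0607), with differences between 3.33 and 3.59, and also without the filter on dim probes (0.0732) and with the replicate block (0.0565).

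Krt5, the type II keratin of the basal layer, is read by 2 probes on chromosome 15. The probe at base 2119 (101537514 to 101537573) stood at -2.92, -2.62, -2.81 and -2.69 on Control arrays, and at 1.14, 2.12, -0.76 and -1.92 on KO arrays. The Control values were close together, and the KO values lay above them but ran from -1.92 to 2.12. The difference of 2.91 (SE 0.75) missed the threshold (adjusted p = 0.0661). Without KO 4 the difference was 3.59 with an adjusted p of 0.0170. Its first probe, at base 677, was above background on none of the Control arrays and on 3 of the KO arrays, with KO levels of -3.57, -2.62, -4.57 and -5.60. It did not pass the filter, and it was at least 1.43-fold higher on the KO arrays.

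Krt14, the usual type I partner of Krt5, did not pass. It stood at -1.68, -1.52, 1.19 and -1.73 on Control arrays and at -0.97, -0.99, -1.61 and -1.35 on KO arrays. Control 3 lay above every other array, and with it the difference was -0.29 with a standard error of 0.60 (adjusted p = 0.815). Without Control 3 the difference was 0.42 (adjusted p = 0.239), and with the slide row as a block it was 0.04.

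The mucosal keratins Krt4 and Krt13, which pair with each other above the basal layer, had 1 probe each that was at background on every Control array and above it on every KO array. The 60-base probes that read them are shown because these are the sequences on which that signal was measured, the second Krt13 probe being above background throughout. The numbers are the first base of the probe in the transcript.
Krt4 1187: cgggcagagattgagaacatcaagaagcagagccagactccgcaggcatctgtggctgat
Krt13 885: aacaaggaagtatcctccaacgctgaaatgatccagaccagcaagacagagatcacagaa
Krt13 279: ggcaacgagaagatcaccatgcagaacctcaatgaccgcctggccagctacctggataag

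Krt4 (type II) stood at -5.52, -4.43, -6.00 and -5.23 on the Control arrays, where it was not well above background on any, and at 0.26, 1.05, -2.69 and -3.95 on the KO arrays. All 4 KO values lay above the Control values. On the background-subtracted scale, Krt4 was at least 9.69-fold higher on the KO arrays. This compares their mean, per Control array, with the lowest signal called well above background or the Krt4 signal where higher. Its fitted difference of 3.96 became 2.25 with normexp and 2.47 with the series matrix values, both below that bound. In the fit its adjusted p was 0.0633, with KO values spread from -3.95 to 1.05, and without KO 4 it was 0.0218. The probe lies on chromosome 15 and its 60 bases span 101750158 to 101750736 in the genome, so it crosses a splice junction.

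Krt13 (type I, chromosome 11) was read by 2 probes of very unequal difference. The probe at base 885 (99980412 to 99980471) stood at -7.26, -6.54, -5.65 and -6.65 on Control arrays, none of them well above background, and at 1.89, 2.73, -0.77 and -2.04 on KO arrays. It was at least 33.3-fold higher on the KO arrays on the background-subtracted scale. It entered the fit through the KO arrays alone, so its adjusted p (limma over all probes, 0.0055) rests on Control values at background. Signal at base 279 (99982471 to 99982530) was well above background on each of the 8 arrays, at 1.33, 0.58, 1.21 and 1.17 and then at 2.20, 2.01, 1.68 and 1.65. Its difference was 0.81 with a standard error of 0.19, or 1.75-fold, and it stood for the gene (adjusted p = 0.0435). On both probes all 4 KO values lay above the Control values, but the call at base 279 was lost in each of 11 alternatives, among them leaving out any array except Control 2 and taking the slide row, which is partly confounded with the groups, as a block (adjusted p = 0.0978). Without KO 2 its adjusted p was 0.135. Why the probes differ in size was not tested.

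Krt78, a type II keratin of mucosal and other stratified epithelia, was read by 2 probes that overlap by 50 of their 60 bases. The probe at base 3210 (chromosome 15, 101776599 to 101776658) stood at -5.00, -5.45, -4.97 and -4.06 on Control arrays, of which only Control 4 was above background, and at -1.59, -1.44, -3.23 and -2.83 on KO arrays. The difference was 2.60 with a standard error of 0.44 (adjusted p = 0.0120), and it rests in part on Control values at background. It became 1.17 with normexp background correction and 1.22 with the series matrix values, both still past the threshold. The second probe, at base 3220, was above background on no Control array and on all KO arrays, and was at least 4.77-fold higher there. It entered the fit through the KO arrays alone, so its adjusted p (limma over all probes, 0.0041) rests on Control values at background. Krt76, a keratin of oral and gastric squamous lining, was above background on KO 1 alone, at -2.19. The corneal keratin Krt12 was above background on 1 KO array.

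**Figure D3:**
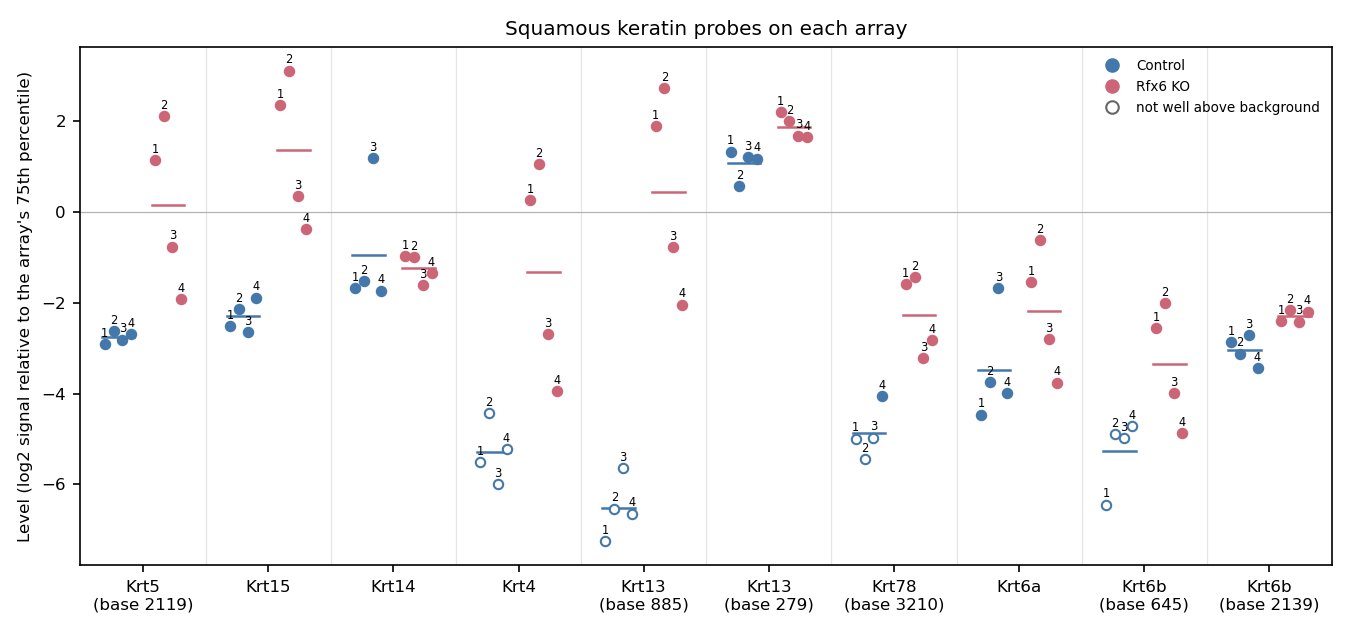
Level of the basal, mucosal and Krt6 probes on each array; the vertical axis is log2 signal relative to the array's 75th percentile, numbers are replicates, bars are group means and open circles are values not well above background. Rfx6 KO 1 and 2 stand highest for Krt5, Krt15, Krt4, Krt13 at base 885, Krt78, Krt6a and Krt6b at base 645, while Krt14 is highest on Control 3.

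The stress-induced keratins, which are made in wounded and fast-renewing squamous epithelium, were mixed. Krt6b (type II, chromosome 15) passed through its probe at base 2139, with levels of -2.87, -3.12, -2.71 and -3.43 on Control arrays and -2.41, -2.16, -2.42 and -2.20 on KO arrays. The groups did not overlap and the KO values were close together, with a difference of 0.74 and a standard error of 0.15 (adjusted p = 0.0304). The call was lost in 11 alternatives, including without Control 1 or 2 or any 1 KO array (adjusted p up to 0.101 on leaving out an array) and with the slide row as a block (0.0975). With normexp its difference was 0.38 and with the series matrix values 0.41. Its other probe, at base 645, was above background on no Control array and stood at -2.55, -2.01, -3.99 and -4.87 on KO arrays, at least 2.38-fold higher (limma over all probes, adjusted p = 0.145). Its KO 4 value lay within the Control range.

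The Krt6b probe at base 645 and the Krt5 probe at base 677 share 38 of the 47 bases over which they align. They are shown with the bases that differ in that stretch in capitals.
Krt5 677: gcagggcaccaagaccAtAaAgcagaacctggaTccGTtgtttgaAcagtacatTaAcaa
Krt6b 645: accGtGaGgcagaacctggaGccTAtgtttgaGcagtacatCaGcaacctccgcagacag
On both probes KO 2 was highest and KO 4 lowest of the KO arrays. Whether transcripts of 1 gene gave signal on the probe of the other was not tested.

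Krt6a stood at -4.47, -3.75, -1.68 and -4.00 on Control arrays and at -1.54, -0.62, -2.80 and -3.76 on KO arrays. The groups overlapped, with Control 3 above KO 3 and KO 4, and the difference was 1.29 with a standard error of 0.76 (adjusted p = 0.383). Control 3 was thus the highest Control array for both Krt14 and Krt6a, which lie on different chromosomes. Krt17, made in basal and stressed cells, differed by 0.43 (adjusted p = 0.212), with KO 2 the highest array at 0.22 and the other arrays between -0.80 and -0.36. Krt16, the usual partner of Krt6a and Krt6b, differed by -0.01 (adjusted p = 0.976).

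None of the epidermal keratins of the cornified layers passed. Krt1, the main suprabasal type II keratin of skin, was above background on 1 KO array, and Krt77 on 1 Control array. Krt2 differed by -0.18 (adjusted p = 0.330) on its probe at base 1673, while its other probe, at base 2347, was above background on no array. Krt9 differed by -0.18 (adjusted p = 0.450). Krt10 differed by 0.64 with a standard error of 0.21 (adjusted p = 0.121) on its probe at base 1311, with levels of -0.41, -1.09, -0.41 and -0.33 and of 0.51, 0.13, -0.23 and -0.08. Its other probe, at base 1765, differed by 0.06 (limma over all probes, adjusted p = 0.688).

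The spread over the 4 KO arrays set some squamous keratins apart from the rest of the family. Of the 17 squamous probes that passed the filter, 8 ran over more than 1.5 log2 units across the KO arrays: Krt4, Krt5 at base 2119, Krt6a, Krt6b at base 645, Krt13 at base 885, Krt15 and both overlapping probes of Krt78. The narrowest of these ranges was 1.78. No simple probe of 6 (up to 1.00), no hair probe of 11 (up to 1.25) and no other probe of 6 (up to 0.82) ran that far. Of all genes, each read by its brightest probe alone, 362 of 23282 did. On all 8 of these probes Rfx6 KO 2 was the highest KO array and KO 1 the next, and on 6 of the 8 KO 4 was the lowest. These probes were picked out by their spread, so this is a description with no test. Of the 8, Krt4, Krt6b at base 645, Krt13 at base 885 and both Krt78 probes passed the filter through the KO arrays alone. Ranges over 1.5 also occurred across the Control arrays. They were those of Krt4, Krt6a, Krt6b at base 645, Krt13 at base 885, Krt14 and the hair probes of Krt35 and of Krt85 at base 2081.

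Other genes of stratified squamous epithelium were listed beside the keratins. Of 14 such genes 11 were tested and 2 were higher past the threshold, where 2.33% of all genes were. The median difference was 0.84, but Ivl, Lypd3, Krtdap, Calml3 and Tgm1 entered the fit through the KO arrays alone. Ly6d, a surface protein of squamous cells, differed by 5.70 (adjusted p = 1.43e-05), and Sprr1a, a cornified envelope precursor, by 1.89 (adjusted p = 0.0221). The mean level of the tested genes was between -2.15 and -1.63 on the Control arrays, and was -0.13, 0.27, -1.14 and -1.22 on Rfx6 KO 1 to 4. The highest Control mean, -1.63 on Control 2, lacks the dim gene Lypd3, an outlier spot there. Krtdap, a protein of differentiating keratinocytes, stood at -2.52, -1.05, -4.23 and -3.69 on the KO arrays. Cnfn, a cornified envelope protein, stood between -2.98 and -2.69 on Control arrays and at 0.13, 1.60, -2.36 and -2.33 on KO arrays. KO 2 stood highest and KO 1 next for Krtdap, Cnfn and the list mean. Not every listed gene had that order. Ly6d and Sprr1a, the 2 past the threshold, were both highest on KO 1 and lowest on KO 3. Ivl, a cornified envelope precursor, was highest on KO 3, and Tgm3 and Trp63 on KO 4.

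The defining regulator of that epithelium, Trp63, was well above background on every array and differed by -0.14 (adjusted p = 0.297). The desmosomal cadherin Dsg3 was above background on 1 KO array, through 1 of its probes, and Sprr1b on no array. Whether squamous cells in the KO samples account for the keratin values was not tested. Of the 10 markers of glandular stomach epithelium, 8 were higher past the threshold on the KO arrays, where 2.33% of all genes were. Of the 8, Gkn1, Gkn2, Tff1, Atp4a, Atp4b and Cblif entered the fit through the KO arrays alone. Their calls therefore rest in part on Control values at background. The mean level of the 10 markers was between -4.48 and -3.03 on Control arrays, in part from such values. On KO arrays it was between 1.85 and 2.54, with KO 1 highest and KO 3 lowest. Their part in the keratin differences was not tested either.

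**Figure D4:**
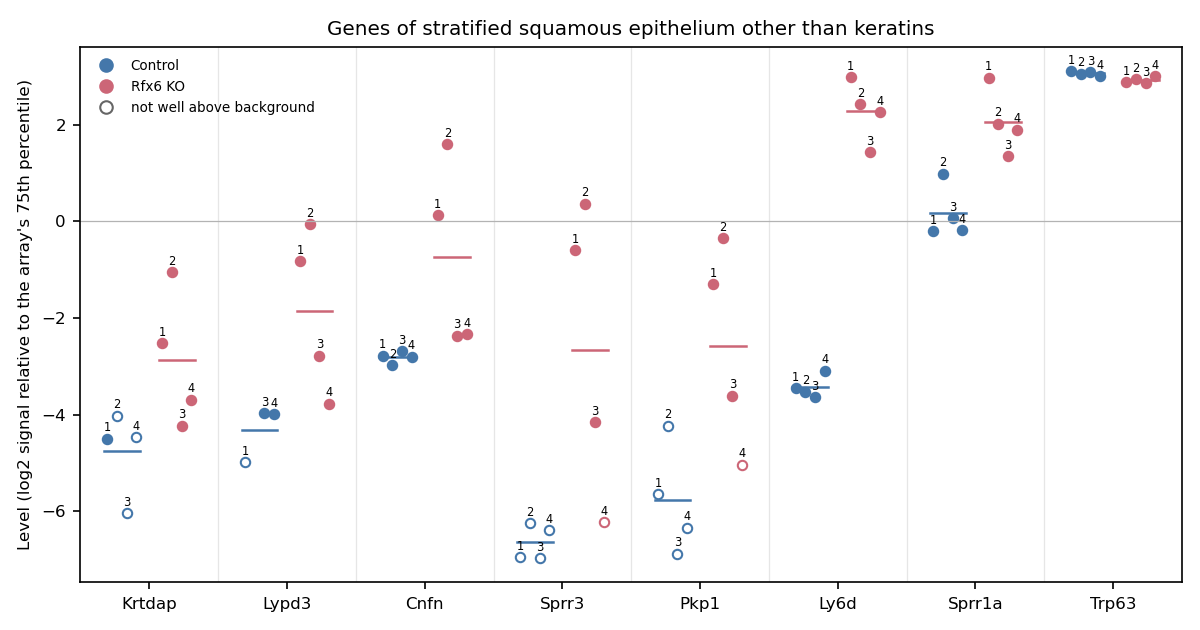
Level of squamous epithelial genes other than keratins on each array; the vertical axis is log2 signal relative to the array's 75th percentile, numbers are replicates, bars are group means and open circles are values not well above background. Krtdap, Lypd3, Cnfn, Sprr3 and Pkp1 are highest on Rfx6 KO 2 and next on KO 1, whereas Ly6d and Sprr1a are high on all KO arrays and Trp63 is level; Lypd3 lacks Control 2, a spot marked as an outlier.

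Other cell types in which keratins occur were read through their own markers. Of 7 genes of cornified skin 4 were above background on no array (Hrnr, Lce1a1, Dsg1a and Dsc1), and the only one tested did not pass. Of 5 hair follicle genes 3 were tested, Padi3 was lower (-0.61, adjusted p = 0.0418), and Foxn1 was above background on no array. Of 4 urothelial genes 1 was lower, Upk3a (-0.48, adjusted p = 0.0427), and the other differences were positive. Upk2 was above background on 1 Control array and all KO arrays, at -2.71, -2.18, -3.87 and -4.61 on KO 1 to 4, the same array order as in most of the widely spread squamous probes, and it differed by 2.36 (adjusted p = 0.144). The part of urothelium in the keratin values was not tested. None of 5 mesothelial, 4 smooth muscle or 5 tested pancreatic genes passed, and of 4 liver genes Ttr was higher (0.63, adjusted p = 0.0033).

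Outside the main classes, 2 keratins passed with small spread. Krt23, a type I keratin known from digestive epithelia (chromosome 11, 99339393 to 99339452), stood at 1.92, 2.05, 1.94 and 1.92 on Control arrays and at 2.94, 2.57, 2.51 and 2.97 on KO arrays. The Control values were nearly level and all KO values lay above them. The group levels were 1.96 ± 0.06 and 2.75 ± 0.24 (SD, n = 4), a difference of 0.79 with a standard error of 0.12, or 1.73-fold (adjusted p = 0.0074). Krt79, a type II keratin known from the hair canal and sebaceous ducts (chromosome 15, 101759764 to 101759823), stood at -0.09, -0.05, -0.21 and -0.20 and at 1.37, 0.76, 0.55 and 1.31. The groups were clearly apart, with a difference of 1.13 and a standard error of 0.18, or 2.19-fold (adjusted p = 0.0090). For Krt23 and Krt79 KO 1 and KO 4 were the highest arrays, an order unlike that of the squamous probes. Both were within the threshold on leaving out any 1 array.

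The other members of that class did not pass. Krt42, a type I keratin of nail and related epithelia, stood at 3.45, 2.76, 3.33 and 3.33 and at 4.11, 3.47, 3.70 and 3.81, with a difference of 0.56 (adjusted p = 0.125). All its KO values lay above its Control values. Krt24 differed by 0.30 (adjusted p = 0.247) and Krt222 by -0.24 (adjusted p = 0.459). The other Krt222 probe, at base 2439, was above background on no array. Krt80 differed by -0.18 (adjusted p = 0.380), with Control 2 left out as an outlier spot.

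Among the hair keratins, 9 of 23 genes were tested and 1 passed. Krt34, a type I keratin of the hair shaft (chromosome 11, 99898830 to 99898889), stood at -5.49, -6.30, -5.15 and -6.38 on Control arrays, none of them well above background. On the KO arrays it was above background throughout, at -2.50, -3.14, -3.69 and -2.65. It was at least 3.06-fold higher on the KO arrays on the background-subtracted scale, with an adjusted p of 0.0024 in the fit. Krt34 entered the fit through the KO arrays alone, so that p rests on Control values at background. The call stayed in all 19 alternatives that gave it a value, but its size did not: the fitted difference of 2.84 became 0.86 with normexp and 1.03 with the series matrix values, both below that bound. None of the hair follicle markers listed above was higher past the threshold.

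Krt32 and Krt35, further type I shaft keratins, were above background on 3 Control arrays and all KO arrays. They differed by 1.15 (adjusted p = 0.0740) and 0.86 (adjusted p = 0.218). Krt31 stood between -1.07 and -0.95 on Control arrays and below all of these on KO arrays, the only tested keratin to do so. Its difference was -0.30 with a standard error of 0.07 (adjusted p = 0.0522). Krt25, of the inner root sheath, differed by 0.41 (adjusted p = 0.105), Krt73 by -0.09 and Krt86 by -0.02.

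The type II hair keratins Krt81 and Krt83 are read by probes of nearly the same sequence, so their values cannot be assigned to 1 gene with certainty. The probe of Krt81 shares 51 of 55 aligned bases with that of Krt83. Both are shown, with the bases that differ within the aligned stretch in capitals.
Krt81 1227, against Krt83: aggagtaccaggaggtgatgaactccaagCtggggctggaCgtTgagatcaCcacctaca
Krt83 1213, against Krt81: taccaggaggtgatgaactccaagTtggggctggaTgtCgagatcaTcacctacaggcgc

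Krt81 stood at 0.15, -0.37, 0.18 and 0.04 on Control arrays and at 0.60, 0.48, 0.35 and 0.40 on KO arrays, a difference of 0.46 (adjusted p = 0.0844). The Krt85 probe at base 1290 stood at 2.70, 1.88, 2.73 and 2.65 and at 3.17, 2.81, 2.93 and 2.96, a difference of 0.48 (adjusted p = 0.202). On both, the KO values lay above the Control values and Control 2 was lowest. The Krt85 probe at base 1290 is also alike in sequence to the probes of Krt81 and Krt83. The Krt81 and Krt85 values are therefore not 2 independent readings, and which gene each probe reads is uncertain. Krt83 was above background on 2 Control arrays and 1 KO array. The other Krt85 probes gave no such difference, with -0.04 at base 2534 and 0.33 at base 2081, which was above background on only 2 Control arrays. The deposited annotation gives the first Krt85 probe no genome position, and it places the probe at base 2081 at 101261695 to 101261754 on chromosome 15, away from the probe at base 2534 at 101346117 to 101346176.

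Over all 2080 pairs of keratin probes, 7 were at least 70% the same over 40 or more aligned bases without gaps, and the median pair was 39.5% the same. Besides those already named, they included Krt36 with Krt39 and Krt28 with Krt42. Probes were compared with probes only, so matches of a probe to other parts of another keratin's transcript were not looked for. With each probe tested in its own right, 9 of the 40 keratin probes were higher, from the same 7 genes, where 2.01% of all probes were. Of these, Krt13 at base 885, Krt34 and both overlapping Krt78 probes entered the fit through the KO arrays alone.

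Promoter sequence was available from RefSeq (GRCm38.p6) for 34 of the 51 keratin genes, among them Krt5, Krt13 and Krt78 but not Krt4, Krt15 or Krt6b. It runs from 250 bases before to 50 after each annotated start. Motifs were searched on both strands. The AP-1 letters TGANTCA were found in 1 of the 34 genes, Krt13, and in 7.81% of all 32851 promoters. The RFX motif letters GTTGCC was found in 6 of the 34, and in 12.5% of all promoters. The AP-2 letters GCCNNNGGC were found in 5 (16.6% of all) and the GC box GGGCGG in 2 (35.7% of all). The TATA box letters TATAAA were found in 18 of the 34 (13.6% of all). A keratin gene was counted if any of its annotated starts had the letters, whereas the shares are over promoters.

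After the sequences had been seen, the letters ATAAAA or TATAAA were also searched on the gene's own strand beginning 40 to 20 bases before the start. They were found in 20 of the 34 keratin genes and in 2.87% of all promoters. The bases before the annotated start are shown for Krt13, at both its annotated starts, and for Krt5 and Krt78, which were high together on Rfx6 KO 1 and 2. All lie on the minus strand, and capitals mark the AP-1 letters and ATAAAA.
Krt13, chr11:100121567-100121816: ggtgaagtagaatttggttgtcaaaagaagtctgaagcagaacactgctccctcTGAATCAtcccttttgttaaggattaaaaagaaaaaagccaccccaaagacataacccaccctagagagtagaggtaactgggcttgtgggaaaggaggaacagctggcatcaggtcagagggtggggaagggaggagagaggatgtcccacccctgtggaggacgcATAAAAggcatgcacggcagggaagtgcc
Krt13, chr11:100120578-100120827: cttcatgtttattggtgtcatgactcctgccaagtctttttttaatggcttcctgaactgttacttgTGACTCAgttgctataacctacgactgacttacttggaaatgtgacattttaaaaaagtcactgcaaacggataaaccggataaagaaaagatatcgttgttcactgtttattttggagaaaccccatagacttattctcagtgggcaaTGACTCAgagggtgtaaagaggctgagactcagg
Krt5, chr15:101712906-101713155: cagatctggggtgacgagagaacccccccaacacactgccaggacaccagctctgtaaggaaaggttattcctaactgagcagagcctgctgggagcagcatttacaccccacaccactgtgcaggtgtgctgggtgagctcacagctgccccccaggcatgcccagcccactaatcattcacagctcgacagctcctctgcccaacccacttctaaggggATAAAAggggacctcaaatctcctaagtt
Krt78, chr15:101954288-101954537: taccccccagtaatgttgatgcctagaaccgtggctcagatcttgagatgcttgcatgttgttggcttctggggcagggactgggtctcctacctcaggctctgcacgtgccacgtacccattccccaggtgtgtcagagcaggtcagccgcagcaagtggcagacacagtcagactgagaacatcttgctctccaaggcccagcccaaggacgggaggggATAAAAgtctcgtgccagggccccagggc
In Krt13 at its first start, Krt5 and Krt78 the letters ATAAAA begin 29 bases before the start. The letters TGANTCA are in neither the Krt5 nor the Krt78 window. These are matches of letters, and no binding was measured.

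Among genes that work with keratins none was higher past the threshold. Of 17 desmosome and plakin genes, which tie keratin filaments to cell junctions, 11 were tested and none passed in either direction, with a median difference of 0.07. The plakins of squamous epithelium had the largest differences among them. Ppl (periplakin) stood between -1.42 and -1.04 on Control arrays and at -0.14, 0.24, -1.07 and -0.98 on KO arrays, a difference of 0.82 (adjusted p = 0.143), and Evpl (envoplakin) differed by 0.57 (adjusted p = 0.122). KO 2 was the highest array for both. Pkp1, the desmosomal plakophilin of stratified epithelia, was above background on no Control array and on 3 KO arrays, at -1.30, -0.34 and -3.60 on KO 1, 2 and 3.

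The other intermediate filament genes, such as those of vimentin, desmin, neurofilaments and lamins, gave 13 tested genes of 15. None was higher past the threshold, and Lmnb2, a nuclear lamin, was lower (-0.63, adjusted p = 0.0378). Their median difference was 0.20, against 0.46 for the keratins.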

How the data were processed

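RNA of 8 samples (4 Control, 4 Rfx6 KO) was labelled with cyanine 3 from 100 ng and hybridised to 1-colour Agilent arrays, per the labels' protocols. Per the file headers, arrays were read with Feature Extraction 10.10.1.1 on an mm9 grid, and the deposited intensity had background subtracted, with no scaling across arrays. The intensity in the authors' series matrix held values whose sorted order statistics match the mean of the sorted spot medians within 0.5 units, with a median of 129.6 in each column. Its scale is linear and its genes are not centred.

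Control spots (3671 of 62976) and outlier spots (153 to 355 per array) were left out and spots of a probe averaged. Levels are log2 intensity minus the array's 75th percentile. Probes were kept if either group had all 4 of its arrays well above background (31668 of 55681), and the probe with the highest mean level stood for each of 23282 genes. Names were updated through RefSeq for 3356 probes, and 26005 kept the file's name. Groups were compared with limma 3.58.1 in R 4.3.3 (lmFit, eBayes, two-sided, Benjamini-Hochberg, threshold 0.05). For a probe at background throughout a group, the fold is given as a bound, the other group's mean against the higher, per array, of the dim signal and the lowest signal well above background. Such bounds hold on the background-subtracted scale only. In simulated data with 200 of 23282 genes changed, 88% of 2-fold and 98% of 4-fold changes were called and 5.10% of calls were false. The simulated noise was normal, independent between genes and equally wide in both groups. Krt5 at base 2119, by contrast, had an SD of 0.13 on Control arrays and 1.82 on KO arrays. The simulated shares therefore need not hold for genes of such unequal spread.

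Members, classes and lists were chosen with earlier results of these data known. Named were Rfx6, each keratin past the threshold, each simple or squamous keratin above background throughout a group, keratins with probes of opposite sign, and up to 6 listed genes past the threshold; others named were chosen after their values were seen. The 20 alternatives cover background correction, scaling, filter, probe choice, series matrix values, blocks, array weights, variance prior and leaving out each array. Correlations between the deviations of same-numbered samples ran from -0.41 to 0.07, with no other pairings set beside them. None was clearly positive, so numbers were not taken as pairs. Probe sequences are the files' own and promoters RefSeq's. Whether a probe lies in coding or untranslated sequence was not analysed here.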

Additional observations from a re-analysis of the deposited data

Results flagged for a closer look

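In the 79 sets of 4 values from the keratin probes that passed the filter, 11 values stood apart from the other 3 of their group by Dixon's test, where 1 in 20 by chance gives 3.95. Of the 11, 8 were on Control 2, 7 of them low. The Krt8 probes stood at 4.91 (others 5.56 to 5.59) and 6.49 (others 6.97 to 6.99) on Control 2, Krt19 at 4.95 (others 5.61 to 5.67), and Krt10 at base 1311 at -1.09 (others -0.41 to -0.33). On the same array the Krt85 probe at base 1290 stood at 1.88 (others 2.65 to 2.73), Krt32 at -4.50 (others -3.35 to -3.19), Krt31 at -1.07 (others -0.97 to -0.95), and Krt23 was high at 2.05 (others 1.92 to 1.94). Krt14 was high on Control 3, at 1.19 (others -1.73 to -1.52). Krt6b at base 645 was low on Control 1, at -6.45 (others -4.98 to -4.71), where no Control value was above background. Krt25 was high on Rfx6 KO 4, at -2.96 (others -3.38 to -3.34).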

How the results depend on the processing

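The count of 7 higher keratin genes became 4 without the filter on dim probes, 13 with array weights and 2 with the replicate number as a block (a replicate block, which the numbers do not warrant as pairs); leaving out each array in turn gave 4 to 7, with 4 without Control 1 or Rfx6 KO 1. The count of 0 lower became 1 with array weights, and 0 to 1 on leaving out an array (Krt31, without Control 2). The simple median of 0.43 ran from 0.30 to 0.51 over 20 alternatives. The squamous median of 0.74 ran from 0.38 to 1.29, the latter when a gene's probes were averaged, and from 0.65 to 0.85 on leaving out an array. Signs turned for values near 0: Krt16 was 3.3e-04 with quantile normalization, 0.059 with median centring, 0.0026 with series matrix values, 0.014 with array weights and -0.029 to 0.026 on leaving out an array. Krt20 ran from -0.13 to 0.21 on leaving out an array. Krt14 was 0.044 with the slide row as a block and -0.56 to 0.42 on leaving out an array. Calls of Krt34 and Krt79 stayed in every alternative that gave them a value, and those of Krt23 and Krt78 in all but the replicate block (adjusted p = 0.0542 and 0.0675). Of 417 values for 21 named genes, 364 kept sign and side of the threshold, 29 lost the call, 10 gained it and 14 turned sign. The median of all genes lay between -0.09 and 0.01. Groups of 4 arrays and signals near background limit the precision.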

Other observations

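In the files 3 probes carry other names and now have keratin symbols, and they were not counted as members. Krt72 (named there as a pseudogene) was above background on 2 Control and 2 Rfx6 KO arrays, Krt88 on 1 Control array, at -2.61, and Krt90 on none. None passed the filter.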
